A study of Mus musculus with 28 samples.

Results

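The TRIM family is described here in mouse spleen, by 57 genes of 18193 with a probe set naming that gene alone. A gene was taken when its symbol is Trim followed by a number and at most 1 letter. Trim10 and Trim58, both known from red cell precursors, were left out by the rule. Where a gene had several probe sets (31 of the 57, 110 probe sets in all), the brightest on average stands for it.

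Spleen RNA was measured on 28 one-colour arrays, in 2 experiments and 12 groups. All mice carry a floxed Pparg gene: PPARg-null mice are PPAR g flfl; MMTV-Cre+ and wild-type mice are PPAR g flfl; MMTV-Cre-, so both genotypes share the floxed allele and differ by a Cre recombinase driven by the MMTV promoter. The labels call the loss specific to epithelial and immune cells in one place and to spleen in another. They speak both of splenocytes and of homogenised tissue. Feed held abscisic acid (ABA), a hormone of plants, or was the control diet. Groups differ further by a challenge with lipopolysaccharide (LPS), a part of the outer membrane of bacteria that TLR4 senses. The wild-type-only experiment has 4 arrays with LPS on each diet and 2 without LPS on each diet. The two-genotype experiment has 2 arrays in each of the 8 combinations of genotype, diet and LPS. Age and the dose and time of LPS are not given in the sources used here. Pparg read 2.29 to 3.70 on every array, in both genotypes, and this probe set could not check the genotype labels.

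TRIM proteins share a RING domain that transfers ubiquitin, 1 or 2 B-boxes and a coiled coil, followed by a variable C-terminal part such as PRY-SPRY or NHL repeats. Many act in innate immunity: they attach ubiquitin to viral sensors and their adaptors, restrict viral capsids or damp inflammatory signalling. Interferons induce a subset of them, and mice carry an expanded cluster of relatives of human TRIM5 on chromosome 7. In spleen the main carriers of these responses are macrophages, dendritic cells and lymphocytes.

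Values are deposited log2 expression, and a difference of 1 log2 unit is a 2-fold change. The lowest value on an array is 2.29 in the wild-type-only and 2.24 in the two-genotype experiment, so levels are not compared across experiments, nor between genes. A value within 0.5 of it is called near the lowest value. Nothing in the labels ties each replicate to its own animal. The p-values therefore reflect sample-to-sample spread alone, which may be technical, and the number of arrays limits the precision. Of 8 B cell markers 7, of 7 T cell markers 6 and of 9 macrophage markers 7 lay near the lowest value on no array. Xist, the RNA that coats an inactive X chromosome, was above 6 on each of the 12 wild-type-only arrays. In the other experiment it was above 6 on 2 of 4 null arrays with LPS and 1 of 4 without, and likewise on 2 of 4 and 1 of 4 wild-type arrays. Wild-type arrays there on the control diet read 12.46 and 12.17 with LPS, against 2.25 and 2.24 without. Neither wild-type ABA array with LPS was above 6. High Xist in these spleens thus coincided with LPS on the control diet, and with the control diet among LPS arrays.

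Among the 57 genes, 25 lay near the lowest value on no array and 21 did so on all 28. Of the 13 interferon-associated and antiviral members only Trim6 was near the lowest value throughout. The 6 muscle and microtubule members were the opposite case: Trim9, Trim46, Trim54, Trim63 and Trim67 were near the lowest value on every array, and Trim36 on 12. The same held for 1 of 4 chromatin-associated TIF1 members (Trim66), 1 of 4 NHL-repeat members (Trim71), 1 of 5 membrane, ARF, filamin or MATH members (Trim45) and 12 of the other 25. At this signal, an RNA present at low level in these genes could not be told from background.

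The sequences shown first are promoter stretches of 4 members of the chromosome 7 cluster, printed because each carries a match to the core of the interferon-stimulated response element, and because their LPS changes went different ways. The match is in capitals. The motif searched, on both strands, was GAAA, then any 2 bases, then GAAA, and the capitals are its reverse complement. Each stretch lies on the minus strand of mouse build GRCm38.p6 and is written 5′ to 3′ along the gene, from RefSeq. The positions are chr7:104465195-104465254 for Trim30a, chr7:104507856-104507915 for Trim30d, chr7:104353350-104353403 for Trim12c and chr7:104288121-104288180 for Trim5.
Trim30a: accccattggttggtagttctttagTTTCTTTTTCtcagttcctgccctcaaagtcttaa
Trim30d: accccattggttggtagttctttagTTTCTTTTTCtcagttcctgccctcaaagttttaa
Trim12c: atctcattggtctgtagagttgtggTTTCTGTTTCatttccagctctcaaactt
Trim5: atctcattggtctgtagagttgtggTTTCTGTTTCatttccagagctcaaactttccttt

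The match began 36 bases before the annotated start in Trim30a, 41 in Trim30d, 29 in Trim12c and 49 in Trim5. The Trim30a and Trim30d stretches were identical at 59 of 60 bases, and those of Trim12c and Trim5 at 52 of 54. Between Trim30a and Trim12c 28 of 54 bases were the same. Counted along the protein-coding genes of the RefSeq table, Trim6, Trim34a, Trim5 and Trim12a stand next to each other on chromosome 7, followed within a few genes by Trim12c, Trim30a and Trim30d. These genes are close copies, so a probe of 1 may also bind RNA of another. Probe sets that name 2 of them together were left out.

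LPS was followed by higher levels of a group of antiviral TRIM genes in wild-type spleens, and by lower Trim59 and Trim7. Over both experiments, 10 of the 40 members tested rose and 4 fell (limma, Benjamini-Hochberg adjusted p under 0.05), while 17 did not pass the filter on level and were not tested. Among the 40 were Trim43a, Trim45, Trim66 and Trim71, near the lowest value on all 28 arrays, and Trim69, near it on 27. Of all genes tested, 16.7% rose and 14.1% fell (30.9% in either direction), and the median change was 0.00 for the members and for all genes. Trim30d rose most, by 3.48 ± 0.19 log2 units (SE), which is 11.1-fold, followed by Trim30a at 2.39 ± 0.14, 5.26-fold, and Trim21 at 2.02 ± 0.17, 4.07-fold. In bulk RNA, fewer or more cells of a type and less or more RNA per cell cannot be told apart. Beside these changes, 3 of 8 B cell markers and 3 of 7 T cell markers fell, of 9 macrophage markers 1 rose and 3 fell, of 6 natural killer cell markers 3 rose and 1 fell, and of 8 neutrophil markers 1 rose and 1 fell. Taken apart, in wild-type-only spleens 0 of the 8 neutrophil markers rose and 4 fell (median -0.74), in null spleens 2 rose and 0 fell (median 1.10), and in two-genotype wild-type spleens 4 rose and 0 fell (median 1.42). Of all genes, 15.1% rose and 12.0% fell in the first of these sets, 3.95% and 3.45% in null spleens, and 8.55% and 5.49% in the last. The part of these cell markers in the results was not tested.

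Of the 12 tested interferon-associated and antiviral members 8 rose, 1 fell and 3 did not pass, with a median change of 0.87. Of all genes, 16.7% rose and 14.1% fell. Trim30d is a mouse paralogue of Trim30a. It read between 10.10 and 11.43 (median 10.89) on the 8 arrays with LPS of the wild-type-only experiment, against 6.78, 7.38, 8.44 and 8.34 on those without. Null spleens with LPS gave 7.83, 7.86, 7.01 and 7.67, against 3.38, 4.16, 5.24 and 3.26 without. Wild-type spleens of the same experiment gave 7.84, 7.69, 7.75 and 8.06 with LPS, against 3.38, 4.10, 3.80 and 4.26 without. No array with LPS overlapped one without it in any of these 3 sets. The call was made in each, by 3.12 ± 0.20 in wild-type-only, 3.58 ± 0.40 in null and 3.95 ± 0.40 in two-genotype wild-type spleens (limma adjusted p at most 0.00116). A second probe set of Trim30d rose by 3.35 over wild-type arrays and by 2.03 in null spleens.

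Trim30a, which in mice damps TLR signalling by removing the adaptors Tab2 and Tab3, rose next most. Its values were 11.88 to 12.35 (median 11.95) in wild-type-only spleens with LPS, against 9.36, 10.08, 10.23 and 10.11 without. They were 12.06, 11.41, 11.20 and 11.60 in null spleens with LPS, against 9.02, 8.97, 10.35 and 8.33 without. Wild-type spleens there had 11.51, 11.91, 11.74 and 11.74 with LPS, against 8.69, 9.38, 8.91 and 8.83 without. Again no arrays overlapped, although 1 null array without LPS on the control diet, at 10.35, stood above the other 3. The rise was called in all 3 sets, by 2.11 ± 0.15, 2.40 ± 0.38 (null) and 2.77 ± 0.38. Its second probe set rose by 2.86 over all wild-type arrays and by 2.15 in null spleens.

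Trim21 is a cytosolic antibody receptor that directs antibody-coated viruses to the proteasome. With LPS it read 10.003 to 11.28 (median 10.73) in wild-type-only spleens, against 8.34, 9.14, 9.39 and 9.31 without LPS. In null spleens it was 9.04, 9.06, 8.90 and 9.20 with LPS, against 6.19, 6.33, 7.97 and 7.23 without. In wild-type spleens of that experiment it was 8.64, 9.13, 9.48 and 9.47, against 6.25, 6.75, 6.73 and 6.86. Every LPS array stood above every array without LPS, and the 4 null arrays with LPS were close together (SD 0.13) while the 4 without were further apart (SD 0.83), the ABA arrays lowest. The changes were 1.64 ± 0.19, 2.12 ± 0.18 (null) and 2.54 ± 0.18, all called. A second probe set of Trim21 rose by 1.86 over wild-type arrays and by 0.98 in null spleens, so the size there depends on the probe set.

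Trim12c, a mouse relative of the retroviral restriction factor TRIM5 of humans, rose by 1.22 ± 0.09 over both experiments. Its 8 LPS arrays in the wild-type-only experiment spanned 9.43 to 9.65 (median 9.501), against 8.02, 8.42, 8.27 and 8.38 without LPS. Null spleens had 10.40, 10.81, 10.18 and 10.64 with LPS, against 9.77, 9.15, 10.13 and 8.64 without. Wild-type spleens beside them had 10.42, 10.69, 10.48 and 10.5001, against 9.12, 9.82, 8.98 and 9.40. The arrays did not overlap in any set, but in null spleens the lowest LPS array (10.18) and the highest without LPS (10.13) were close, and the difference of 1.09 ± 0.32 did not pass (adjusted p = 0.0800). It passed in wild-type-only spleens (1.24 ± 0.07) and in wild-type spleens of the other experiment (1.19 ± 0.32, adjusted p = 0.0405), where leaving out 1 array at a time lost the call in 13 of 16 cases, with adjusted p up to 0.126.

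Trim30d, Trim30a, Trim21 and Trim12c were the 4 of 57 members in which every LPS array exceeded every array without LPS in all 3 sets, a pattern met by 2.56% of all genes. Group means were higher with LPS in all 6 pairs of diet, genotype and experiment for these 4 and for Trim14 and Trim34a, 6 of 57 against 9.80% of all genes. The plot of values per array shows these 6 genes with Trim59 and Trim7.

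**Figure D1:**
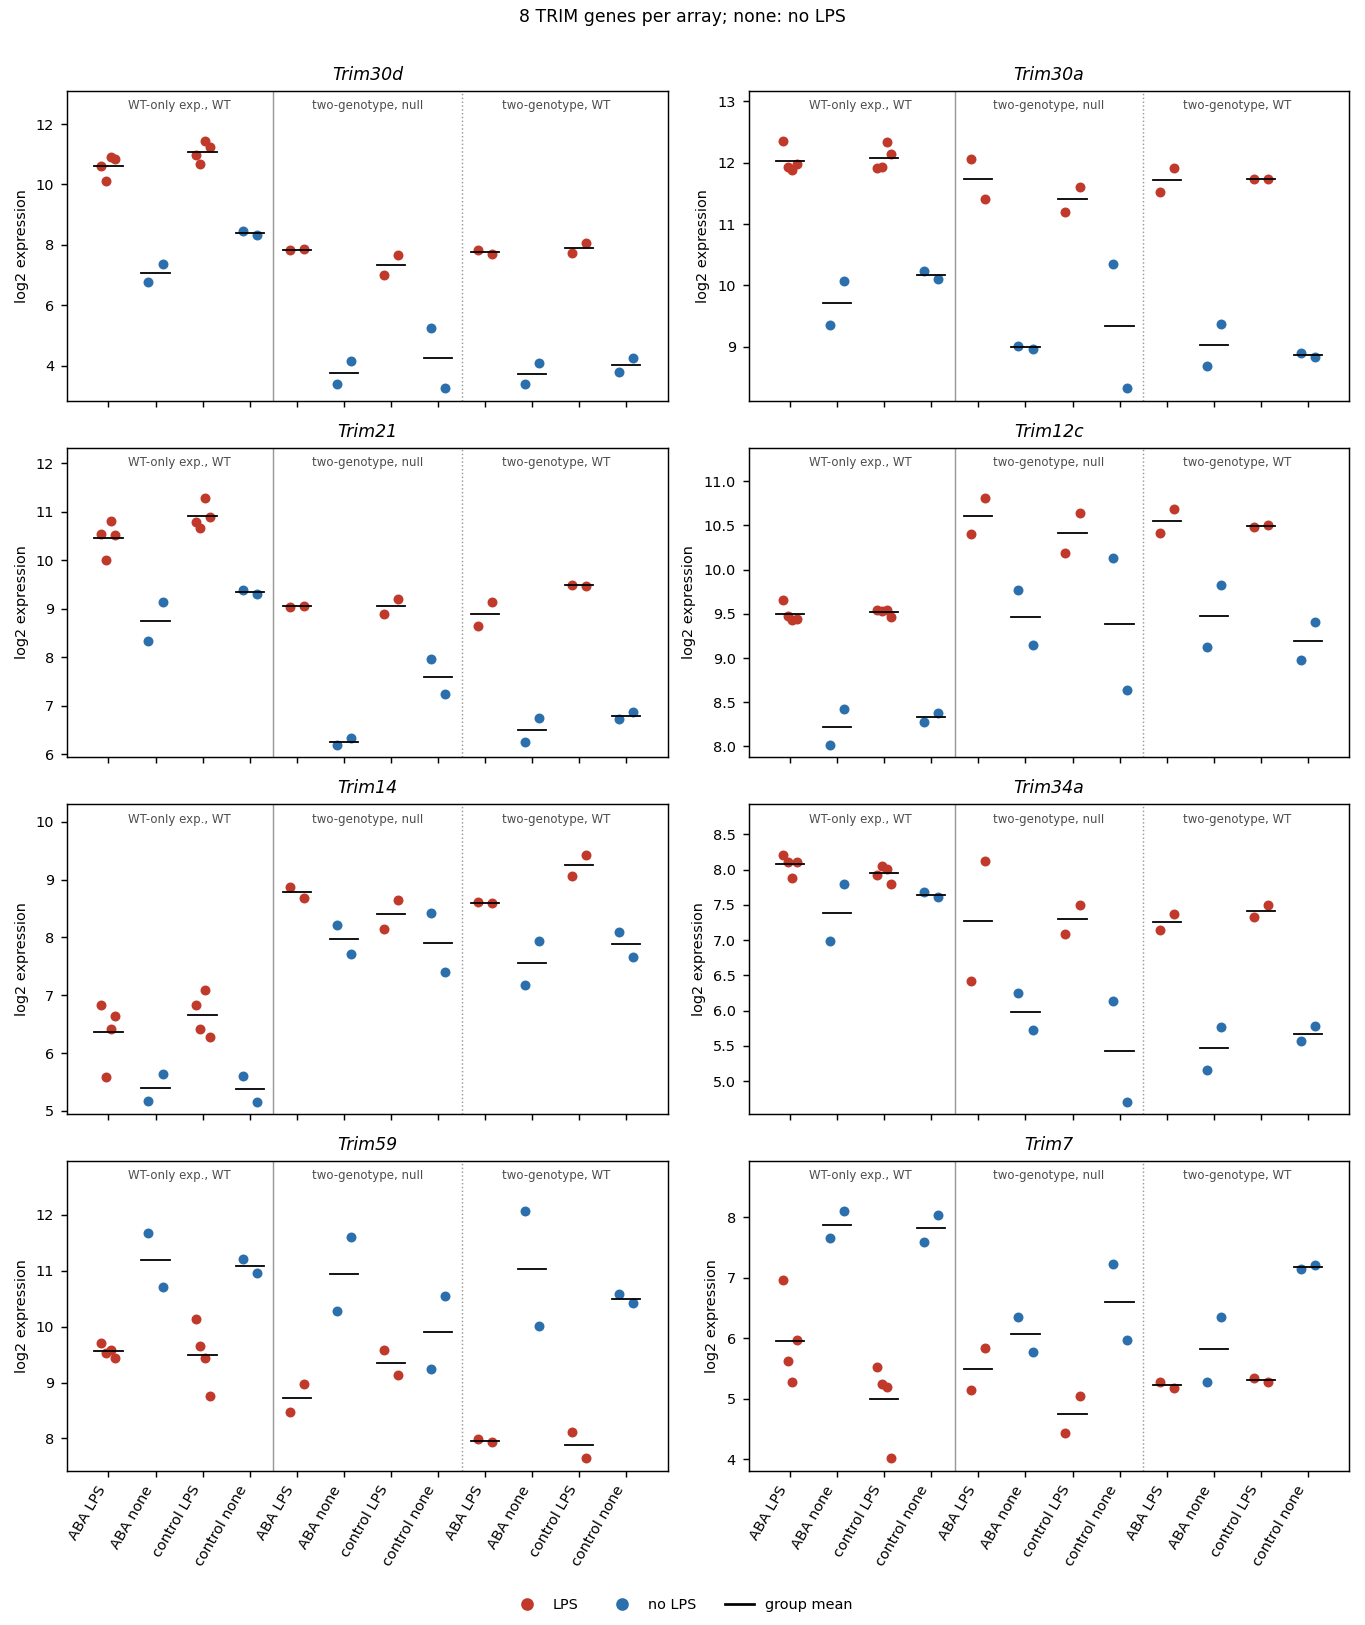
Each panel plots 1 gene on a log2 axis, with 1 point per array (red with LPS, blue without) and a bar at the mean of its group. The groups run from the wild-type-only experiment on the left to null and wild-type spleens of the two-genotype experiment. Trim30d, Trim30a, Trim21 and Trim12c show no overlap between LPS and no LPS within any of the 3 sets, while Trim14, Trim34a, Trim59 and Trim7 overlap in at least 1.

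Trim14, an adaptor at mitochondria that links the sensor Rig-I's partner Mavs to downstream kinases and lacks the RING domain, rose by 1.15 ± 0.17. It read 5.59 to 7.09 (median 6.53) in wild-type-only spleens with LPS, against 5.17, 5.63, 5.61 and 5.16 without. Wild-type spleens of the two-genotype experiment had 8.61, 8.59, 9.06 and 9.43, against 7.18, 7.94, 8.10 and 7.66. In the first of these sets 1 LPS array, at 5.59 on the ABA diet, lay among those without LPS, and in the second no arrays overlapped. Null arrays overlapped, at 8.15 to 8.88 with LPS against 7.40 to 8.42 without, and the difference of 0.65 ± 0.26 did not pass (adjusted p = 0.189).

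Trim34a, whose human counterpart is interferon-induced and restricts retroviral capsids together with TRIM5, rose by 1.04 ± 0.19 with unlike sizes in the 2 experiments, a difference not tested. It read 7.79 to 8.21 (median 8.03) in wild-type-only spleens with LPS, against 6.98, 7.79, 7.68 and 7.61 without, a rise of 0.49 ± 0.14. The two-genotype experiment gave 6.42, 8.13, 7.09 and 7.49 in null spleens with LPS, against 6.24, 5.73, 6.13 and 4.71 without. Its wild-type spleens had 7.15, 7.37, 7.33 and 7.496, against 5.16, 5.77, 5.57 and 5.78. LPS arrays overlapped the others in the wild-type-only experiment, where 1 array without LPS was at 7.79, and not in either genotype of the other. The rise there was 1.58 ± 0.41 in null and 1.77 ± 0.41 in wild-type spleens. The call in null spleens was marginal (adjusted p = 0.0496) and was lost in 14 of 16 cases when 1 array was left out, with adjusted p up to 0.132, and in 5 of 9 other alternatives. The wild-type-only Trim34a call was lost with quantile scaling (0.33, adjusted p = 0.142), shifted medians (0.29, adjusted p = 0.136), array weights (adjusted p = 0.0540) and in 4 of 12 cases with 1 array left out, and the call in wild-type spleens beside the null ones in 5 of 16.

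Trim25, the ligase that attaches ubiquitin to the RNA sensor Rig-I, rose by 0.70 ± 0.13, and its other probe sets by 0.92 and 1.37. It passed in wild-type spleens of the two-genotype experiment, at 11.09 to 11.34 with LPS against 9.90 to 10.41 without. It did not pass in the wild-type-only experiment (0.49 ± 0.16, adjusted p = 0.0547), where 12.95 to 13.92 with LPS overlapped 12.73 to 13.43 without, nor in null spleens (0.40 ± 0.18). The other Trim25 probe sets gave 0.31 ± 0.28 and 1.44 ± 0.39 in null spleens and did not pass either, so the size there depends on the probe set. Trim12a, another relative of TRIM5, rose and Trim5 fell in the wild-type-only experiment. Trim12a read 9.36 to 10.01 with LPS against 8.57 to 9.22 without, a rise of 0.78 ± 0.14, and Trim5 7.51 to 8.09 against 7.88 to 8.33, a change of -0.44 ± 0.11. Both genes read 2.24, the lowest value, on all 16 two-genotype arrays, so their calls over 20 arrays, 0.45 ± 0.13 and -0.25 ± 0.09, rest on the other 12. For Trim5 the call was lost without any 1 of 5 arrays (adjusted p up to 0.0920), and the second probe set of Trim12a did not pass (0.25).

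Trim26, Trim56 and Trim65, which act on interferon production after nucleic acid sensing, were the 3 tested antiviral members that did not pass. Trim26 differed by 0.41 ± 0.16 (adjusted p = 0.0584), Trim56 by 0.22 ± 0.08 (adjusted p = 0.0534) and Trim65 by -0.20 (adjusted p = 0.374). A second Trim26 probe set gave 0.01.

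Of the 14 tested among the remaining PRY-SPRY and other members 2 rose and 2 fell, near the 16.7% and 14.1% of all genes. Trim35, a ligase first described in blood cell lineages, rose by 0.66 ± 0.14. Its LPS arrays read 9.65 to 10.47 (median 10.20) in the wild-type-only experiment, against 8.91 to 9.80 without, and 9.91 to 10.44 in wild-type spleens of the other, against 8.82 to 10.05. The ranges overlapped in both, and 2 further probe sets, both of low signal, gave -0.13 and 0.19 and did not pass. In null spleens the Trim35 difference was 0.00 ± 0.35. Trim44, a family member with a zinc finger of ubiquitin proteases in place of the RING domain, rose by 0.40 ± 0.07 over both experiments. In wild-type-only spleens it read 10.61 to 11.19 (median 10.99) with LPS against 10.56 to 10.69 without, ranges that overlapped, and the rise was 0.34 ± 0.10 (adjusted p = 0.0389). That Trim44 call was lost with quantile scaling (0.20), shifted medians (0.13), the mean of its probe sets, array weights and in 9 of 12 cases with 1 array left out. Two-genotype wild-type spleens read 10.22 to 10.36 against 9.60 to 9.98, which did not overlap. The difference of 0.48 ± 0.15 did not pass (adjusted p = 0.0665), and null spleens gave 0.07 ± 0.15. Other Trim44 probe sets, of lower signal, gave 0.46 and 0.35 over wild-type arrays and did not pass.

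Trim59 and Trim7 fell most, and Trim59 was the 1 of 5 tested membrane, ARF, filamin or MATH members that fell (14.1% of all genes fell). Trim59, which is anchored in membranes by a transmembrane segment, fell by 2.14 ± 0.28, and a second probe set by 2.00. It read 8.76 to 10.14 (median 9.56) in wild-type-only spleens with LPS, against 11.67, 10.72, 11.21 and 10.97 without. Null spleens had 8.47, 8.97, 9.57 and 9.13, against 10.28, 11.60, 9.25 and 10.56. Wild-type spleens of that experiment had 7.98, 7.93, 8.11 and 7.64, against 12.06, 10.02, 10.58 and 10.42. LPS arrays stood below the others in both wild-type sets, and overlapped in null spleens, where the difference of -1.38 ± 0.48 did not pass (adjusted p = 0.126).

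Trim7, known as a partner of glycogenin, the protein that primes glycogen, fell by 1.88 ± 0.31. Its values were 4.01 to 6.96 (median 5.40) in wild-type-only spleens with LPS, against 7.66, 8.10, 7.59 and 8.04 without. Null spleens gave 5.15, 5.84, 4.43 and 5.05, against 6.35, 5.78, 7.23 and 5.98. Wild-type spleens beside them gave 5.28, 5.18, 5.34 and 5.28, against 5.28, 6.36, 7.14 and 7.22. The first set did not overlap, the null arrays did, and in the last 1 array without LPS on the ABA diet was as low as the LPS arrays. The null difference of -1.22 ± 0.33 did not pass (adjusted p = 0.0624), and the wild-type call there (-1.23 ± 0.33, adjusted p = 0.0405) was lost in 11 of 16 cases with 1 array left out. A second Trim7 probe set of low signal gave -0.51 and did not pass.

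Erythroid genes fell with LPS beside these genes: 8 of the 9 measured erythroid markers, Trim10 among them, with a median change of -2.45 over wild-type arrays, the exception being Hba-a1, near the lowest value. Taken apart, 3 of 9 fell in the wild-type-only experiment (median -2.25) and 6 of 8 tested in two-genotype wild-type spleens (median -4.43). In null spleens 0 of 8 tested erythroid markers passed, with a median of -1.54. Of all genes, 14.1% fell over wild-type arrays, 12.0% in wild-type-only, 5.49% in two-genotype wild-type and 3.45% in null spleens. The test of LPS by genotype called 0 of these 8. The mean of the 9 ran from 4.10 to 5.62 on LPS arrays of the wild-type-only experiment, against 4.96 to 9.37 without LPS. It was 6.86 to 9.18 in null spleens with LPS, against 6.503 to 11.01 without, and 5.67 to 6.57 in wild-type spleens, against 8.63 to 11.1. The null array without LPS that had the lowest erythroid mean, 6.503, had the lowest Trim59 (9.25) and the highest Trim7 (7.23) of its set. Whether erythroid cells contribute to the fall of Trim59 or Trim7 was not tested.

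**Figure D2:**
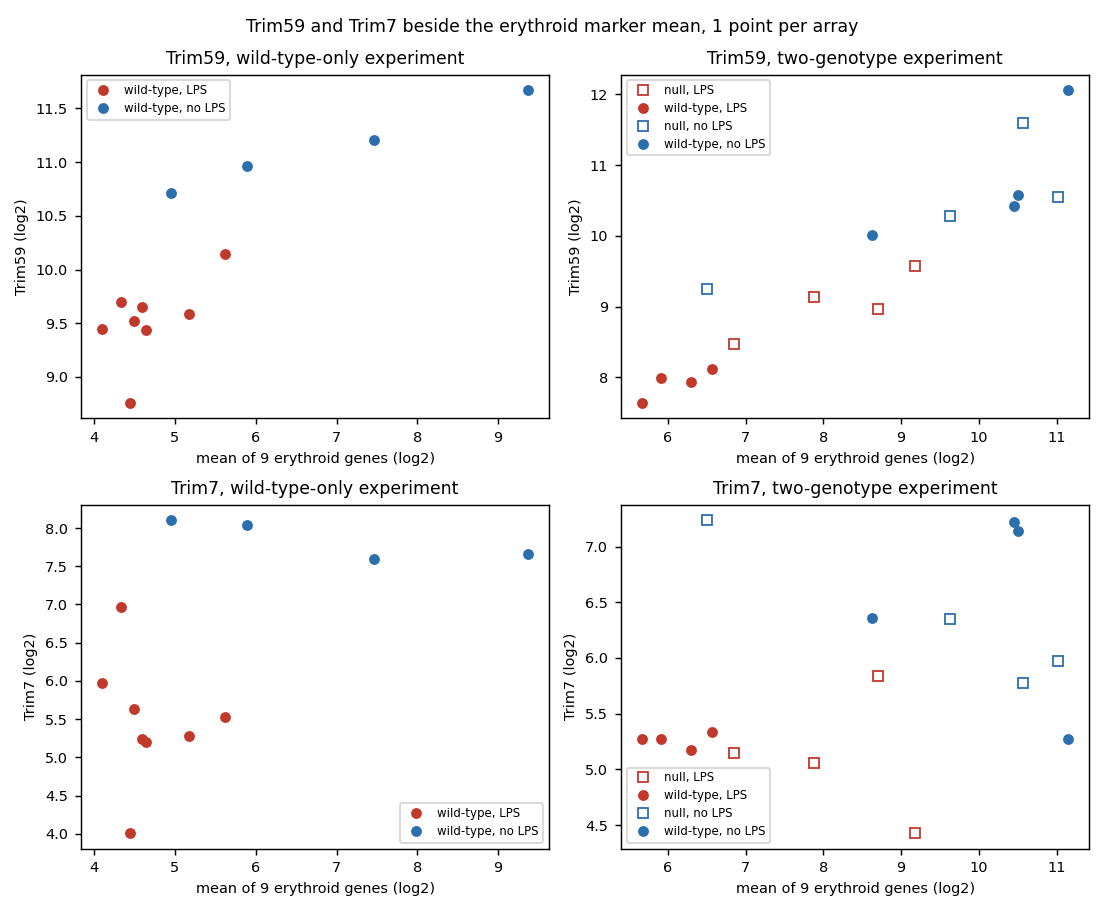
Each point is 1 array, with the mean of 9 erythroid genes on the horizontal axis and Trim59 (top) or Trim7 (bottom) on the vertical axis, both in log2 units, for each experiment apart. In the two-genotype experiment wild-type arrays with LPS lie at the low end of both axes of the Trim59 panel, and in the Trim7 panel they share their level with 1 array without LPS.

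Trim8, which binds the signalling inhibitor Socs1, fell by 0.45 ± 0.15 over wild-type arrays (adjusted p = 0.0354). In the wild-type-only experiment Trim8 read 7.23 to 8.43 (median 8.20) with LPS against 8.36 to 9.08 without. Its group means differed there by -0.48 on the control diet and -0.76 on ABA. In two-genotype wild-type spleens they differed by -0.51 on the control diet and 0.06 on ABA. Trim8 did not pass in the wild-type-only experiment alone (-0.62, adjusted p = 0.0594). Leaving out 1 array lost the joint call in 7 of 20 cases, with arrays of both experiments among them (adjusted p up to 0.0961). It was also lost in 7 of 12 alternatives, among them no filter (adjusted p = 0.0517), the mean of its probe sets (-0.21, adjusted p = 0.0748) and a term for high Xist (adjusted p = 0.0554).

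None of the 4 tested TIF1 members, co-regulators of transcription on chromatin, passed in wild-type spleens. Trim28, the co-repressor of KRAB zinc finger proteins, differed by 0.36 (adjusted p = 0.0934), Trim24 by -0.27 and Trim33 by -0.13, and Trim66 stayed near the lowest value. In null spleens Trim24, a partner of nuclear receptors, fell by 1.01 ± 0.24 (adjusted p = 0.0366), with 6.99, 6.72, 6.25 and 7.10 with LPS against 8.10, 7.54, 8.05 and 7.42 without. Wild-type spleens of the same experiment read 7.06, 6.72, 7.43 and 6.86, against 8.01, 8.01, 7.71 and 7.46 (-0.78 ± 0.24, adjusted p = 0.0625). LPS arrays lay below the others in both genotypes, and the difference between the genotypes' changes was -0.23 (95% interval -0.998 to 0.53). The null call was lost in 9 of 16 cases with 1 array left out, with array weights (adjusted p = 0.103) and with a term for high Xist (adjusted p = 0.0629). The other 2 Trim24 probe sets gave -0.05 and -0.09 in null spleens and did not pass, and the mean of all its probe sets gave -0.38, which passed. Trim24 was low in wild-type-only spleens, at 2.97 to 3.95 with LPS against 2.97 to 3.30 without.

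None of the 4 NHL-repeat members passed. Trim2, which acts in neurons, had the largest difference of them at -0.89 ± 0.35 (adjusted p = 0.0629), with lower means under LPS in all 6 pairs of groups, as also found for Trim41, Trim59 and Trim7 (4 of 57 members against 10.3% of all genes). Another Trim2 probe set of lower signal fell by 0.53, while the rest that were tested gave -0.52, -0.11 and -0.01 and did not pass. Trim32 differed by 0.40 and Trim3 by -0.04. Trim23, a ligase with an ARF GTPase domain, rose by 0.51 ± 0.11 in the wild-type-only experiment, where 3 of its 4 arrays without LPS were near the lowest value, and differed by -0.68 ± 0.21 (adjusted p = 0.0612) in wild-type spleens of the other. The Trim23 call was lost with the mean of its probe sets (0.07, adjusted p = 0.591) and with array weights (adjusted p = 0.102).

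Taken by experiment, 10 members rose and 3 fell of 37 tested in the wild-type-only experiment, where 15.1% of genes rose and 12.0% fell (27.1% in all). In null spleens 4 members rose and 1 fell of 39, against 3.95% and 3.45% of genes (7.40% in all). In wild-type spleens beside them 7 rose and 2 fell of 39, against 8.55% and 5.49% of genes. Those 7 were all antiviral members. All 4 that rose in null spleens, Trim21, Trim30d, Trim30a and Trim34a, were of this group too.

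**Figure D3:**
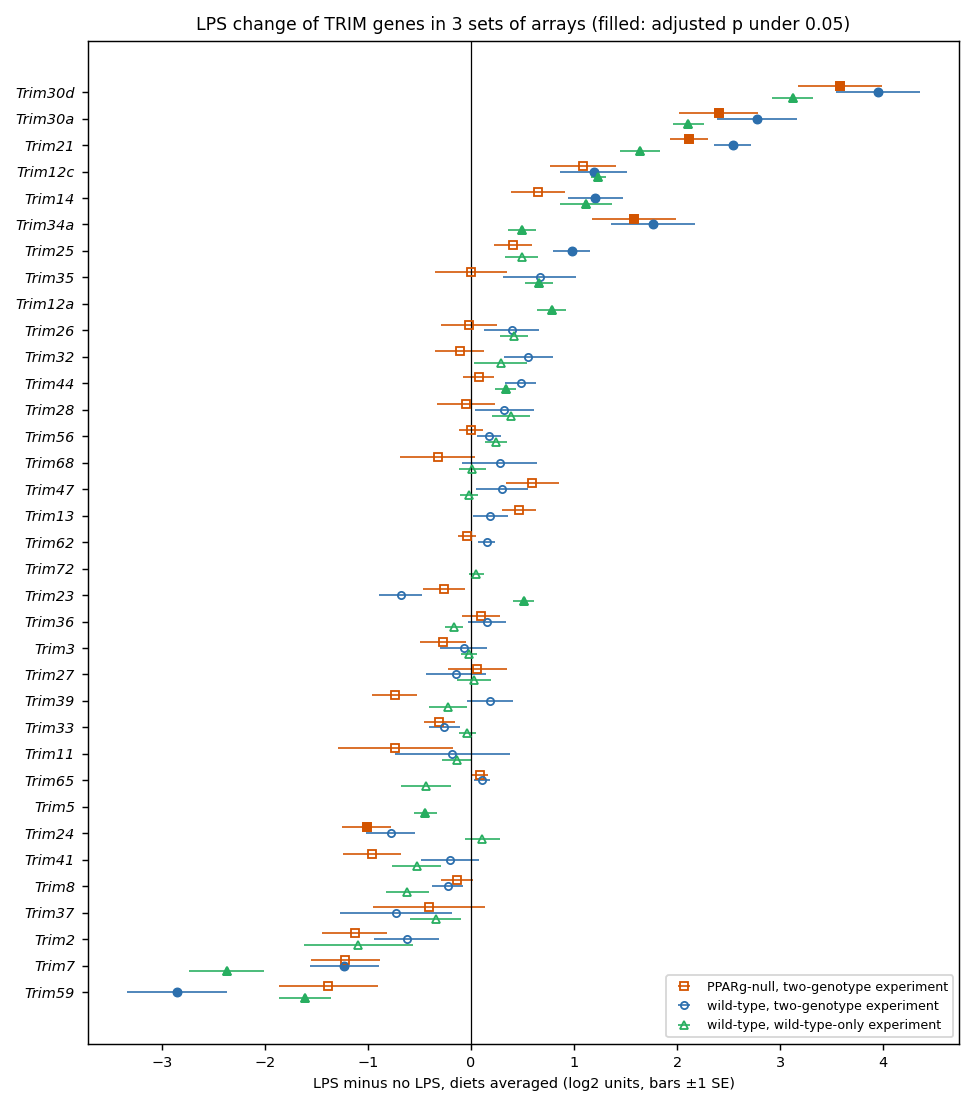
Change with LPS in log2 units (diets averaged, bars 1 SE) for 35 tested TRIM genes, in null spleens (squares), wild-type spleens of the two-genotype experiment (circles) and the wild-type-only experiment (triangles), with filled symbols for an adjusted p under 0.05. Trim30d, Trim30a and Trim21 are filled in all 3 sets at the top, and Trim59 and Trim7 are filled in both wild-type sets at the bottom.

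A promoter window, 250 bases before to 50 after an annotated start, was at hand for 46 members (60 windows). The response element core occurred in 9 of the 46, 19.6%, against 3.99% of the 27025 genes in the table (3.44% of 32851 windows). It was in the windows of 6 of the 8 members with a window that rose over wild-type arrays, Trim30d, Trim30a, Trim21, Trim12c, Trim34a and Trim12a, and not in those of Trim25 and Trim44. Of 3 members that fell Trim5 had it, and of 21 others tested Trim2 and Trim26 did. None of 14 untested members had it. In Trim21, Trim34a and Trim12a the match lay after the annotated start. These counts describe letters in a window, and 6 of the 9 genes lie in the chromosome 7 cluster, where copies share sequence.

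**Figure D4:**
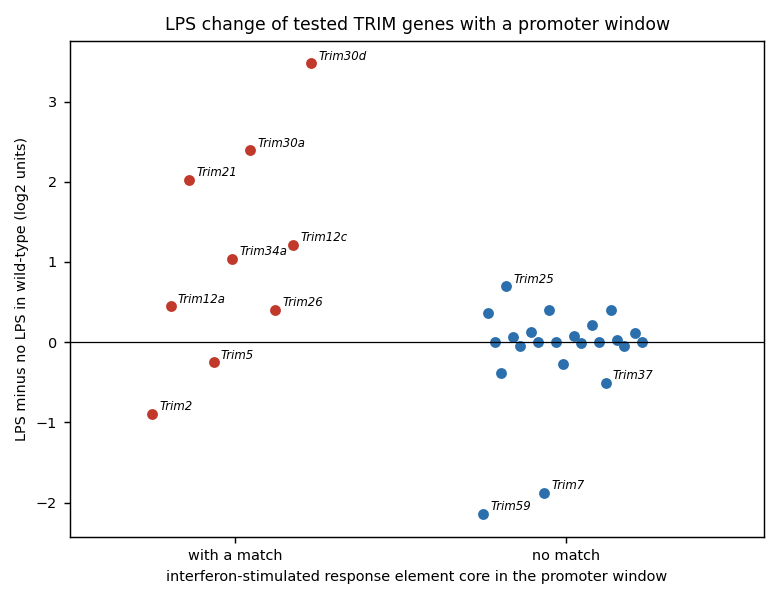
LPS change over wild-type arrays in log2 units for tested TRIM genes that have a promoter window, split by whether the window holds the response element core on either strand. Points are spread sideways for legibility only. Trim30d, Trim30a, Trim21, Trim12c and Trim34a are among the 9 genes with a match, and Trim25 and Trim44 among those without.

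A second motif, the gamma-activated site core TTCNNNGAA (N any base), is its own reverse complement and overlaps no response element match here. It was found in 4 of 46 members, against 9.55% of all genes, and in 0 of the 8 that rose. Those with it were Trim15, Trim31, Trim45 and Trim46, all near the lowest value on every array.

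Of 4 TRIM genes with other names 3 rose over wild-type arrays (16.7% of all genes rose), with a median change of 1.83. Pml, the organiser of nuclear bodies, rose by 1.91 ± 0.18, Mid1, a microtubule-bound ligase, by 1.88 ± 0.63 and Mefv, the pyrin inflammasome sensor, by 1.78 ± 0.28, while Mid2 differed by -0.06 and did not pass. Mid1 differed by 0.45 in the wild-type-only experiment, where it did not pass (adjusted p = 0.387), and rose by 3.80 in wild-type spleens of the other. In null spleens Pml rose by 1.48, Mid1 by 4.26 and Mefv by 2.04.

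Among 19 sensors and signalling partners of TRIM ligases 10 rose and 1 fell over wild-type arrays, with a median change of 0.49. Of all genes, 16.7% rose and 14.1% fell. The RNA sensors rose most: Dhx58 by 4.63 ± 0.26, Ifih1 by 3.33 ± 0.24 and Ddx58, which encodes Rig-I, by 2.58 ± 0.16. The kinase Ikbke rose by 1.63, the adaptor Sting1 by 1.06, the DNA sensor Cgas by 0.94 and Tbk1 by 0.71, while Mavs fell by 0.89 ± 0.23. Tab2, a target of Trim30a, differed by -0.03 and Tab3 by -0.76, neither past the threshold. In null spleens 6 of the 19 rose, and so did 6 of 19 in wild-type spleens of the same experiment. All genes rose in 3.95% and 8.55% of cases there. The test of LPS by genotype called 0 of the 19.

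Of 15 tested genes of interferon receptor signalling 8 rose and 1 fell, with a median of 0.80, while 16.7% of all genes rose and 14.1% fell. Usp18, which removes the ubiquitin-like Isg15, rose by 5.13 ± 0.33, the transcription factors Irf7 by 4.09 ± 0.28, Irf1 by 2.81 ± 0.26 and Stat2 by 2.01 ± 0.36, and the cytokine Ifng by 4.00 ± 0.66. The receptor chain Ifngr1 fell by 0.42 ± 0.13. In null spleens 4 of 17 rose, led by Usp18 at 4.595 and Irf7 at 4.24, and in wild-type spleens of the same experiment 7 of 17. Of all genes, 3.95% and 8.55% rose there. The test of LPS by genotype called 0 of the 17. These partner lists and the TRIM members were measured on the same arrays.

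The genotype comparisons called no TRIM gene. With LPS, null against wild-type spleens differed by an adjusted p under 0.05 for 0 of 39 members (0.0299% of all genes, 0.0224% higher in null), and without LPS for 0 of 39 (0.00748%). At an unadjusted p under 0.05 there were 2 members with LPS and 0 without, against 4.52% and 2.12% of all genes. The members with the smallest p with LPS were Trim39, a ligase of cell cycle control, at -0.62 ± 0.22 and Trim59 at 1.12 ± 0.48, and Trim32 at -0.54 ± 0.24. Trim39 read 5.54, 4.91, 4.65 and 5.13 in null spleens with LPS, against 5.87, 5.49, 5.75 and 5.62 in wild-type spleens with LPS, and these arrays overlapped in 1 pair. Without LPS the smallest p belonged to Trim54 (0.09), Trim25 (0.33) and Trim62 (0.13), of which Trim54 was near the lowest value on all 28 arrays.

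Whether the LPS change itself differed between genotypes was tested as an interaction, and 0 of 39 members passed (0.0299% of all genes, 0.0224% with a positive difference). At an unadjusted p under 0.05 there was 1 member, against 4.46% of all genes. Trim39 had the smallest p, with a change in null spleens lower by 0.93 ± 0.31 log2 units (adjusted p = 0.914). For the genes with the largest rises the intervals were wide: the null change minus the wild-type change was -0.37 for Trim30d (95% interval -1.66 to 0.92), -0.37 for Trim30a (-1.60 to 0.86) and -0.42 for Trim21 (-1.005 to 0.16). For Trim25 it was -0.57 (-1.16 to 0.02) and for Trim59 1.47 (-0.08 to 3.01). Each of these differences was taken by the gene's brightest probe set alone. Trim7, Trim12c, Trim14, Trim25 and Trim59 were called in wild-type and not in null spleens of this experiment. As 0 of 39 members passed the interaction test, a difference between the genotypes was not shown for them.

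No diet difference among the TRIM genes passed. In wild-type spleens ABA against control diet called 0 of 40 members with LPS (0.0149% of all genes) and 0 of 40 without (0.00743%). At an unadjusted p under 0.05 there were 2 and 1 members, against 5.08% and 5.86% of all genes. With LPS, Trim32 had the smallest p, at -0.70 ± 0.24 (adjusted p = 0.909). In wild-type spleens of the two-genotype experiment it read 3.35 and 3.43 on ABA, against 3.83 and 5.08 on the control diet. In wild-type-only spleens it read 5.45, 5.03, 5.33 and 4.45 on ABA, against 5.27, 5.48, 6.31 and 5.26, where the diets overlapped. In the two-genotype set both control arrays and neither ABA array had Xist above 6, and with a term for high Xist the joint difference was -0.56.

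Trim21 averaged lower on ABA in both genotypes, without passing the threshold. The difference was -0.49 ± 0.21 with LPS (95% interval -0.94 to -0.04, adjusted p = 0.944) and -0.45 ± 0.26 without LPS in wild-type spleens, and -0.67 ± 0.18 in null spleens over both LPS states (-1.08 to -0.26, adjusted p = 0.857). Null spleens without LPS read 6.19 and 6.33 on ABA, against 7.97 and 7.23 on the control diet, and with LPS 9.04 and 9.06 on ABA, against 8.90 and 9.20. The null diets stood apart without LPS, while with LPS both ABA arrays lay between the control arrays. The null difference over both LPS states thus rests on the arrays without LPS. Of these 4 null arrays, the one at 7.97 also had the highest Trim30d (5.24) and natural killer marker mean (6.42). It had the lowest erythroid mean (6.503) and Trim59 (9.25). Xist was above 6 on 1 of these ABA arrays without LPS and on neither control array. Among wild-type LPS arrays of the two-genotype experiment it was above 6 on both control arrays and neither ABA array.

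Trim30d had the smallest p for ABA without LPS, at -0.80 ± 0.29 (95% interval -1.42 to -0.18, adjusted p = 0.814). In wild-type-only spleens it read 6.78 and 7.38 on ABA against 8.44 and 8.34 on the control diet, while wild-type spleens of the two-genotype experiment had 3.38 and 4.10 on ABA against 3.80 and 4.26. Next came Trim47 at -0.29 and Trim11 at -0.61. With LPS the next members after Trim32 were Trim21 and Trim14 (-0.41 ± 0.21).

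In the test of whether the change with LPS differed between diets no member passed (0 of 40, 0% of all genes). An unadjusted p under 0.05 was met by 1 member, against 4.17% of all genes. The smallest p belonged to Trim47 (0.42), Trim7 (1.27 ± 0.61, 95% interval -0.01 to 2.56) and Trim11 (0.78). In null spleens ABA called 0 of 39 members (0% of all genes). An unadjusted p under 0.05 was met by 3 members, against 3.13% of all genes. Those 3 were Trim8 at 0.57 ± 0.15 (adjusted p = 0.838), Trim21 as above and Trim65 at 0.22. Trim8 read 7.57 and 7.53 on ABA with LPS, against 6.27 and 6.71 on the control diet with LPS, and without LPS 7.32 and 7.07 on ABA, against 7.13 and 7.10.

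**Figure D5:**
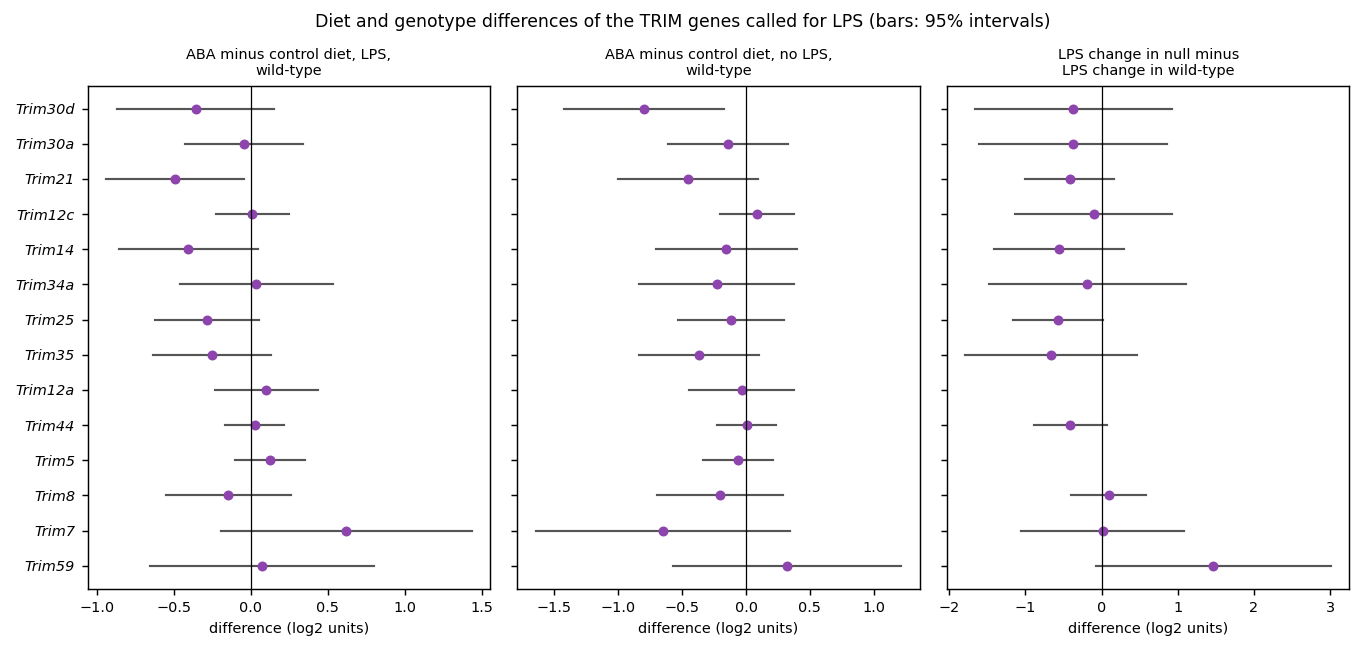
Differences in log2 units with 95% intervals for the TRIM genes called for LPS over wild-type arrays: ABA minus control diet with LPS, the same without LPS, and the LPS change in null minus that in wild-type spleens. No member passed in these comparisons after adjustment. The intervals of Trim21 (with LPS) and Trim30d (without LPS) lie below 0 before it.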

How the data were processed

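Total RNA from 28 spleen samples was biotin-labelled and hybridised to one-colour arrays. The deposited values are log2 expression per probe set. GCRMA and limma appear, without version or role, among the tools of the submitters' processing notes, and the sources used here name no genome build. The 2 experiments have different lowest values and were taken as normalised separately. Scanner files were not used here.

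Of 45101 probe sets, 34945 name 1 gene in the platform annotation, 932 several and 9224 none. Single-gene probe sets were used, and the 64 control probe sets were not. The fits used limma (3.58.1, under R 4.3.3), and p-values were adjusted over all genes tested by the Benjamini-Hochberg method, with a threshold of 0.05. A gene was tested if it passed its array's 40th percentile on at least 4 arrays of the 20-array fit or 2 of the other fits. The wild-type comparisons took 20 arrays, a term for experiment and 13458 genes, the wild-type-only comparison 12 arrays and 12059 genes, and genotype comparisons 16 arrays and 13377 genes. Changes are given ± SE, levels with SD where named, and intervals cover 95%. The scripts were tested on simulated data. No 2 arrays held identical values (0 pairs).

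The members and lists were chosen with earlier results of these data known. Members are named if past the threshold (for LPS in wild-type spleens up to 14, by size), or, where none passed, as the 3 smallest p-values, and list genes if they passed, up to 8 a list. Mid2, Tab2, Tab3, Trim2, Trim3, Trim26, Trim28, Trim32, Trim33, Trim41, Trim56 and Trim65 were described further to complete their role groups or because their values were seen. Alternatives were quantile or median scaling, other filters, averaging a gene's probe sets, a trended robust prior, array weights, a replicate block, a term for high Xist, single experiments and each array left out. Testing every probe set on its own was added after seeing the data.

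The replicate numbers in the labels do not say that they mark shared animals or days. Deviations of same-numbered samples from their group means correlated between -0.17 and 0.38 in the wild-type-only and between -0.70 and 0.51 in the two-genotype experiment, so the numbers were not taken to pair samples. Promoter sequences come from RefSeq, build GRCm38.p6, matched by symbol. Matplotlib 3.10.9 (Python 3.11.15) drew the figures.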

Additional observations from a re-analysis of the deposited data

Results flagged for a closer look

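In 42 groups of 4 arrays, tested gene by gene for the named members, 2 held an array apart from the other 3, and chance gives about 1 in 20. Both concern Trim47, a family member with low signal in the wild-type-only experiment. With LPS on the ABA diet replicate 2 read 2.69, and with LPS on the control diet replicate 2 read 2.58, where the other 3 arrays of each group read 2.41. These values lie within 0.5 of the lowest value of the experiment, so the array measured a difference close to background.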

How the results depend on the processing

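Over wild-type arrays the 10 members that rose with LPS became 6 both within the two-genotype experiment (8 arrays) and with no experiment term, and 10 to 12 with 1 array left out. The 4 that fell became 8 with arrays shifted to a common median, 2 with the replicate block, 0 within the two-genotype experiment and 2 with no experiment term, and 2 to 5 with 1 array left out (2 without wild-type-only control diet, no LPS, replicate 2). In the wild-type-only experiment 10 rises became 5 with the replicate block and 7 to 11 with 1 array left out, and 3 falls became 5 with shifted medians and 2 to 6 with 1 array left out (6 and 5 without ABA, no LPS, replicates 1 and 2). In wild-type spleens of the two-genotype experiment 7 rises became 4 to 9 with 1 array left out (4 without wild-type ABA, no LPS, replicate 1, wild-type ABA with LPS replicate 2 or wild-type control with LPS replicate 2), and 2 falls became 4 with quantile scaling and 4 with shifted medians, 1 each with no filter, the replicate block and a term for high Xist, and 1 to 3 with 1 array left out (1 in 7 of 16 cases). In null spleens 4 rises became 3 to 6 with 1 array left out, and 1 fall became 2 with quantile scaling or the mean of all probe sets, 3 with shifted medians or a 60th percentile filter, 0 with array weights or the Xist term, and 0 to 4 with 1 array left out (4 without null control, no LPS, replicate 2). Comparisons of diet and genotype called 0 members under every alternative run, with or without the replicate block.

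Trim30d, Trim30a, Trim21, Trim12c and Trim34a kept their direction and call over wild-type arrays under all 12 alternatives and with any 1 array left out. The mean of all probe sets gave smaller changes that still passed for Trim7 (-0.82), Trim14 (0.61) and Trim35 (0.24). The replicate block lost the calls of Trim8, Trim12a and Trim5 over wild-type arrays, and those of Trim14, Trim35, Trim23, Trim34a, Trim5 and Trim44 in the wild-type-only experiment. Trim5 turned to 0.69 with no experiment term (adjusted p = 0.849), and Trim11 for ABA without LPS to 0.0021 within the wild-type-only experiment. Over all genes, 4154 calls for LPS in wild-type spleens became 755 within the two-genotype experiment and 1434 with no experiment term, and 3273 in the wild-type-only experiment became 1892 with array weights and 1774 with the replicate block. For ABA in wild-type spleens, 2 calls with LPS and 1 without ranged from 0 to 78 each, and 0 for the diet interaction from 0 to 47. Leaving out 1 array took the 1879 calls for LPS in two-genotype wild-type spleens to between 793 and 2339, the 990 in null spleens to between 572 and 1603, the 4 for LPS by genotype to between 1 and 133, the 4 for null against wild-type with LPS to between 1 and 79, the 1 without LPS to between 1 and 190, and the 0 for ABA in null spleens to between 0 and 145. Under other settings the last 4 counts ranged from 2 to 7, 1 to 18, 0 to 8 and 0 to 6. Shifted medians moved the median of all genes by -0.14 in the wild-type-only experiment. The number of arrays and signal near background limit the other members.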
